A study of Mus musculus with 8 samples.

Results

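The keratin genes and the keratin-associated protein genes of the mouse were examined by their positions on the nucleosome maps of 4 histone modifications. Members were the protein-coding genes of the GENCODE vM1 annotation (NCBIM37, the mm9 assembly) whose symbol begins with Krt or Krtap followed by a digit, so membership rests on symbols alone, although the family itself was taken up with earlier results of these data known. The rule found 97 of 22359 protein-coding genes, of which 51 were keratin genes and 46 were keratin-associated protein genes. By their usual site of expression the keratins fell into 4 simple epithelium keratins (Krt7, Krt8, Krt18 and Krt19), 21 keratins of stratified epithelium, 7 of the inner root sheath, 14 of the hair shaft and 5 others. The symbols Krt3, Krt72 and Krt85 are not among the symbols of this annotation and were not analysed here.

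Keratins are the intermediate filament proteins of epithelial cells, and each filament pairs an acidic type I with a basic type II chain. Krt8 and Krt18 form the pair of simple, single-layered epithelia, where Krt7 and Krt19 are added in ducts and airways, whereas Krt5 and Krt14 mark the basal layer and Krt1 and Krt10 the upper layers of the epidermis. Keratin-associated proteins cross-link the filaments of the growing hair shaft. The genes lie in dense clusters, type I keratins on chromosome 11 and type II keratins, with the type I gene Krt18, on chromosome 15. Among the modifications, H3K4me3 and H3K9ac are known from the promoters of active genes, H3K36me3 from transcribed gene bodies, and H3K27me3 from genes silenced by Polycomb proteins.

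The libraries came from subcutaneous isografts of the Lewis lung carcinoma (LLC), a mouse carcinoma line, grown in female C57BL/6J mice of 6 to 8 weeks to about 500 mm3. LLC-NR is the line sensitive to VEGF-Trap, a soluble decoy receptor that binds VEGF, and LLC-R is the line selected in vivo by continuous VEGF-Trap treatment until it was resistant. There was 1 library for each line and modification, 8 in all, so a difference between the lines has no replicate check and no p-value is given. Tissue was digested with micrococcal nuclease before immunoprecipitation and so held the nuclei of tumor and host cells, and a change in cell composition and a change within cells cannot be told apart. The labels call the tissue lung, although the tumors were grown under the skin.

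Each library was a list of positions of 147 bp, the footprint of 1 nucleosome, with no height, and from 5660429 (H3K4me3, LLC-R) to 9101676 (H3K27me3, LLC-R) positions per library were used. A level is the number of these peaks whose midpoint lay in a region, and neighbouring peaks never overlapped. At most 11 peaks therefore fit in a promoter, taken as 1 kb before to 0.5 kb after the transcription start site (TSS), and 69 in a tile of 10 kb. Such counts compress strong enrichment, and every 95% interval given is an exact Poisson or Clopper-Pearson interval that covers no variation between tumors. Counts of peaks that cannot overlap can vary less than Poisson counts, so the Poisson intervals can be wider than counting error. For H3K27me3 in LLC-NR, the 32 tiles from Krt222 to Krt40 on chromosome 11 had an SD of 2.18 at a mean of 39.56 peaks. No input library was used here.

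The promoter sequences of 5 keratins are shown, the 4 simple keratins and the basal keratin Krt14, because the results set the simple keratins against those of skin and hair. These 5 genes were chosen after their values were seen. Each sequence runs 5′ to 3′ on the strand of the gene in the NCBIM37 genome, from 250 bases before the TSS, and base 251 is the TSS. The TSS was the start used by the largest number of protein-coding transcripts of a gene, the most upstream of ties, which at Krt19 and Krt7 lies inside the annotated gene and not at its outer end. Capitals mark CpG dinucleotides.
Krt8, chr15:101834724-101835023, minus strand: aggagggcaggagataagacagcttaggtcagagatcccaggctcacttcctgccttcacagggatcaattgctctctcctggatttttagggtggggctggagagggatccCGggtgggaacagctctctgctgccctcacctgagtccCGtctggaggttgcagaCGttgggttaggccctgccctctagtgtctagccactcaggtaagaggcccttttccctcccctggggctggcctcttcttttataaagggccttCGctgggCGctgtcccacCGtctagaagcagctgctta
Krt18, chr15:101858397-101858696, plus strand: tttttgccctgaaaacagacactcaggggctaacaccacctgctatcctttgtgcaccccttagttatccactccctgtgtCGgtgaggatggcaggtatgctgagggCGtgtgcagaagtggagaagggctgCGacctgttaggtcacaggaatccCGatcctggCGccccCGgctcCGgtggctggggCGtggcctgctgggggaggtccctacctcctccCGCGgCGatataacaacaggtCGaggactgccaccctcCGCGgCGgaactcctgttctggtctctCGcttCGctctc
Krt7, chr15:101241284-101241583, plus strand: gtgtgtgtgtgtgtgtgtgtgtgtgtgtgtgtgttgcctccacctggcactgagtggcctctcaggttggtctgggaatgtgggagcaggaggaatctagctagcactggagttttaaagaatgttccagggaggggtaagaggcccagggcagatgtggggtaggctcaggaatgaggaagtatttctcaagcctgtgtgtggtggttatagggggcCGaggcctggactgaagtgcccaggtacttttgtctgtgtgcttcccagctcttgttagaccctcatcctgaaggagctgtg
Krt19, chr11:100007385-100007684, minus strand: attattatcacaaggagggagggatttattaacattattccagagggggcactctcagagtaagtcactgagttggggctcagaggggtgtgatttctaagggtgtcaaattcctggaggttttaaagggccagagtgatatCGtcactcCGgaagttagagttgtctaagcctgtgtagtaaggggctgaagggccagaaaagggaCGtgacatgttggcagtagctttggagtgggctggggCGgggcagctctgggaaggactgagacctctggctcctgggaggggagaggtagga
Krt14, chr11:100068813-100069112, minus strand: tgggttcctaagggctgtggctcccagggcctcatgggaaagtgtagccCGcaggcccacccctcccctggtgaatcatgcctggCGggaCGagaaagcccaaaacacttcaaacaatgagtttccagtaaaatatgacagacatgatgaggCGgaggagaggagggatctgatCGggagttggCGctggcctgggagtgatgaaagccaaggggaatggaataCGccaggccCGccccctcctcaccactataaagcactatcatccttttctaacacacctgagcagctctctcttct

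The 300 bases held 17 CpGs at Krt18, 8 at Krt14, 6 at Krt8, 4 at Krt19 and 1 at Krt7. The median was 3 in the members and 12 in all protein-coding genes. A promoter was of the high-CpG class where a 500-bp interval had at least 55% G+C and a ratio of observed to expected CpG of 0.6 or more, and of the low-CpG class where no interval reached 0.4. By this, 6 members were of the high-CpG class, 37 of the intermediate class and 54 of the low-CpG class. The low-CpG class thus held 55.7% of the members and 28.3% of all protein-coding promoters. It held 36 of the 46 keratin-associated protein genes (78.3%) and 17 of the 42 skin and hair keratins (40.5%). The high-CpG members were Krt8, Krt18, Krt83, Krt26, Krt27 and Krt28, and thus both members of the simple pair and 3 of the 7 inner root sheath genes.

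The letters TATAAA, searched on both strands of the same 300 bases, were present in 63 of 97 members (64.9%). They were present in 13.5% of all protein-coding promoters and in 25.2% of those of low CpG content. The share was 82.6% in the keratin-associated protein genes and 52.4% in the skin and hair keratins, and Krt8 was the only simple keratin with it. The letters GGGCGG were found in 7.22% of members, against 43.9% of all promoters and 7.36% of low-CpG promoters. The letters TGAGTCA were found in 7.22% of members, against 4.37% of all promoters and 7.21% of low-CpG promoters. No motif can overlap another of these 3. The motifs were chosen with the values known, and a match is a description of the letters in this window.

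Promoters of the members carried few H3K4me3 peaks in both lines. The mean was 3.22 ± 1.38 peaks in LLC-NR versus 3.35 ± 1.37 in LLC-R (SD over 97 genes), against 4.92 and 4.61 over all protein-coding genes. Windows of 1.5 kb that lay 5 kb or more from every TSS of a protein-coding gene held 3.21 and 3.22 peaks, near the mean of the members. These windows could lie in gene bodies or at the start of other genes, and had no limit on repeated sequence. In LLC-NR 16 members (16.5%) reached the mean of all promoters, where 63.9% of all protein-coding promoters did. In LLC-R 18 members (18.6%) reached it, against 58.9% of all promoters.

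H3K9ac separated the members less. The members averaged 5.0 peaks in LLC-NR versus 4.59 in LLC-R, against 5.50 and 4.96 over all genes and 4.91 and 4.52 in the same windows. At or above the mean of all promoters were 35 members (36.1%) in LLC-NR, against 62.3% of all, and 54 (55.7%) in LLC-R, against 70.3%. By group, 12 of 21 stratified keratins reached it in LLC-NR versus 15 in LLC-R. So did 5 of 7 inner root sheath keratins in each line. Of 14 hair shaft keratins 4 reached it in LLC-NR versus 9 in LLC-R, and of the 4 simple keratins 3 and 4. Of the 46 keratin-associated protein genes 8 did in LLC-NR. In LLC-R 13 of these genes held 5 peaks and 5 held 6. For H3K27me3 the members lay slightly above other promoters. Members averaged 4.99 peaks in LLC-NR versus 5.90 in LLC-R, against 4.56 and 5.45 over all promoters and 4.23 and 5.30 in the windows. The ratios to all promoters, 1.09 and 1.08, had Poisson intervals with lower bounds of 0.999 and 0.995. These intervals just reach 1 and can be too wide for such counts, so they do not settle whether the members differed from all promoters. At or above the mean were 68 members (70.1%) in LLC-NR, against 56.7% of all, and 65 (67.0%) in LLC-R, against 58.8%.

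The authors kept only uniquely mapped reads, and repeated sequence in these families limits what could be seen. At 77 promoters at least 80% of the 36-base stretches occur once in the genome. Of the 20 promoters below that share, 15 belong to keratin-associated protein genes. The 77 unique promoters held 3.55 H3K4me3 peaks on average in each line, and the 20 others 1.95 in LLC-NR versus 2.6 in LLC-R. All protein-coding promoters that passed the same limit held 5.37 and 5.03, and those of low CpG content 3.96 and 3.83. The unique members were at 0.72 (0.64 to 0.81) and 0.77 (0.68 to 0.87) of the mean of all promoters. The unique low-CpG promoters, at 0.81 and 0.83, lay toward the upper end of these intervals. Of the 77 unique members 36 were of the low-CpG class, 35 intermediate and 6 high-CpG, so that class is not a matched reference for them.

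The skin and hair keratins and the keratin-associated genes lay below the mean of all promoters in H3K4me3, and the simple keratins could not be placed on either side of it. The 4 simple keratins averaged 4.25 peaks in LLC-NR versus 5.75 in LLC-R, with ratios to all promoters of 0.86 (0.50 to 1.38) and 1.25 (0.79 to 1.87) from 17 and 23 peaks. The 42 skin and hair keratins averaged 3.48 and 3.38, which is 0.71 (0.60 to 0.83) and 0.73 (0.62 to 0.87) of the mean of all promoters. The 46 keratin-associated protein genes averaged 2.91 and 3.04, or 0.59 (0.50 to 0.70) and 0.66 (0.56 to 0.78) of that mean. Within the skin and hair keratins, the stratified group averaged 3.71 and 3.33, the inner root sheath group 3.86 and 3.86, and the hair shaft group 2.93 and 3.21. Olfactory receptor genes, a family used mainly in the nose that was added after the values were seen, averaged 3.15 and 3.09 over 1113 genes.

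H3K27me3 was ordered otherwise. The skin and hair keratins averaged 5.71 peaks in LLC-NR versus 6.29 in LLC-R, 1.25 (1.1 to 1.42) and 1.15 (1.02 to 1.3) times the mean of all promoters. The inner root sheath genes were the highest group, with 6.14 and 6.86. Keratin-associated protein genes averaged 4.28 and 5.46. Those on chromosome 11 held 5.14 and 5.73 peaks. Those on chromosome 16 held 3.26 and 5.32, or 0.72 (0.55 to 0.92) and 0.98 (0.79 to 1.19) of the mean. The simple keratins held 4.75 and 6.50.

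**Figure D1:**
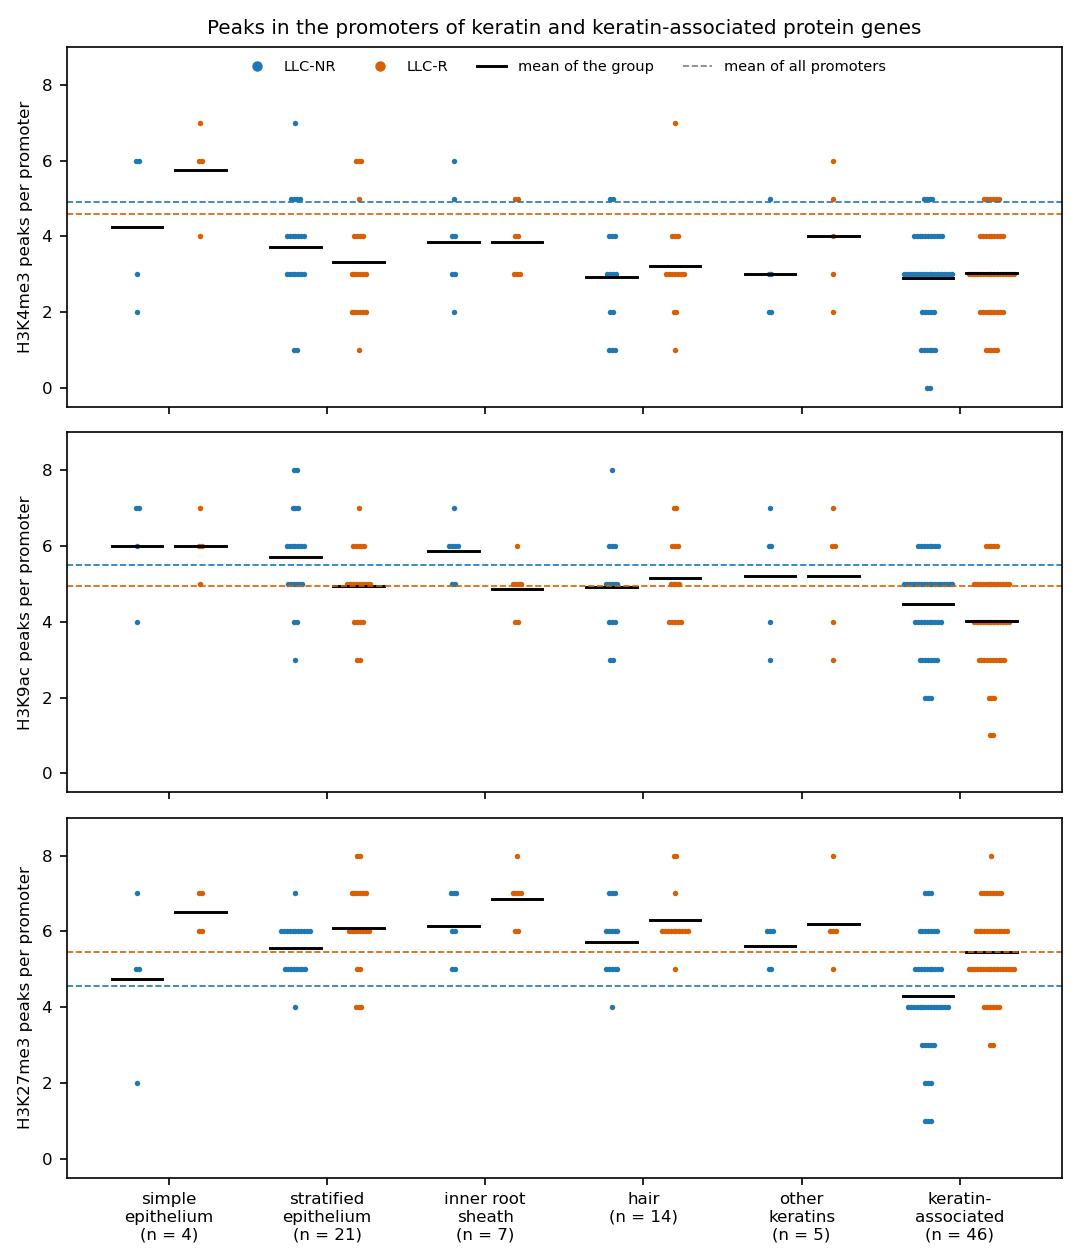
Peaks per promoter (vertical axes) of H3K4me3, H3K9ac and H3K27me3 in 6 groups of members, with 1 point for each gene, LLC-NR in blue, LLC-R in orange, black bars for group means and dashed lines for the means of all promoters. Group means of H3K4me3 lie below the dashed lines except for the simple keratins in LLC-R, at 5.75 peaks, and most H3K27me3 means lie above them.

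Carcinomas that arise from simple epithelia usually keep the simple keratins, and these 4 promoters were read gene by gene. Krt8, the type II chain of the simple pair, held 6 H3K4me3 peaks in LLC-NR versus 6 in LLC-R. Its H3K9ac peaks numbered 7 and 5, and its H3K27me3 peaks 5 and 6. Krt18, its type I partner, held 6 H3K4me3 peaks in LLC-NR versus 4 in LLC-R, with 6 and 6 of H3K9ac. Its H3K27me3 peaks numbered 2 in LLC-NR versus 7 in LLC-R. In LLC-NR only 7 members had 2 or fewer H3K27me3 peaks, Krt18 and 6 keratin-associated protein genes of chromosome 16, where 13.6% of all promoters did.

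Krt7, the duct and airway keratin of type II, held 3 H3K4me3 peaks in LLC-NR versus 7 in LLC-R. Its H3K9ac peaks numbered 7 and 7 and its H3K27me3 peaks 5 and 7. Krt19, a type I keratin of ducts, held 2 H3K4me3 peaks in LLC-NR versus 6 in LLC-R. Its H3K9ac peaks numbered 4 and 6 and its H3K27me3 peaks 7 and 6. Thus in LLC-NR the Krt8 and Krt18 promoters held more H3K4me3 peaks than those of Krt7 and Krt19, and in LLC-R Krt18 held the fewest of the 4. The gain of 4 H3K4me3 peaks at Krt7 and Krt19 was shared by 1 other member, Krtap13, and a gain of 4 or more was seen at 0.496% of all protein-coding promoters. The gain of 5 H3K27me3 peaks at Krt18 was reached by the members Krtap15 and Krtap7-1, and a gain of 5 or more was seen at 0.926% of all promoters. These gains are not scaled by library size, and a promoter with many peaks has little room to gain. In LLC-NR 23.6% of all promoters held 3 or fewer H3K4me3 peaks, and 13.6% held 2 or fewer H3K27me3 peaks. The share among promoters that started as low was not computed, so these gains are not shown to be rare for such promoters.

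On the log2 scale, scaled by the peaks of each library and with a pseudocount of 10% of the mean, the H3K4me3 ratio of LLC-R to LLC-NR was 1.11 at Krt7, 1.39 at Krt19, 0.00 at Krt8 and −0.53 at Krt18. The H3K27me3 ratio at Krt18 was 1.3. Relative to the TSS, with negative positions upstream, the H3K4me3 peaks nearest it at Krt18 lay at −113 and 96 bp in LLC-NR and at −34 and 136 bp in LLC-R. At Krt19 the 2 H3K4me3 peaks of LLC-NR lay at −778 and −172 bp, and the 6 of LLC-R spread from −971 to 407 bp. The Krt8 and Krt18 start sites lie 23.9 kb apart.

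**Figure D2:**
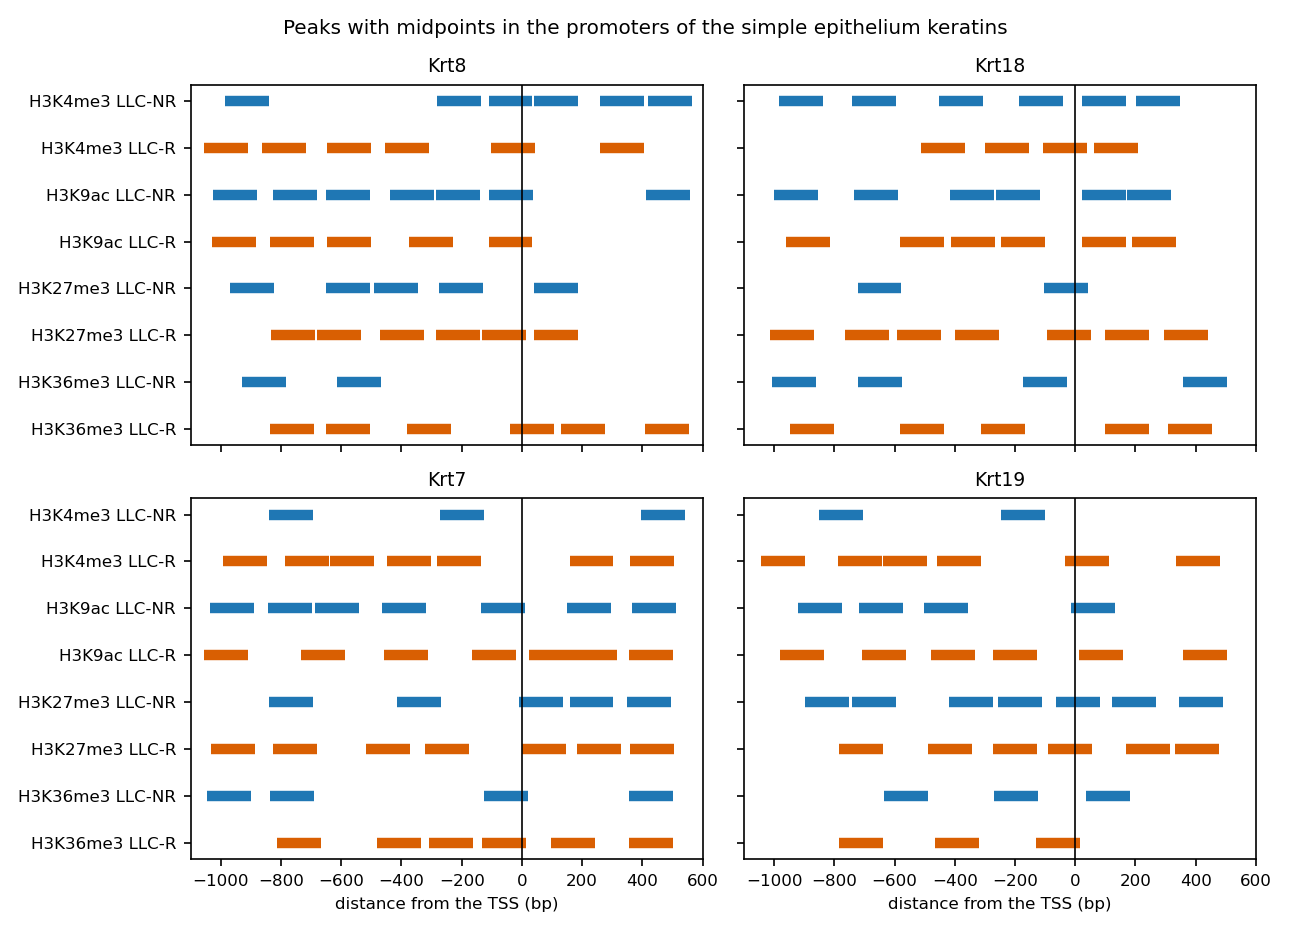
Peaks of 147 bp with midpoints in the promoters of Krt8, Krt18, Krt7 and Krt19, against the distance from the TSS in bp, with 1 line for each library (LLC-NR in blue, LLC-R in orange). Krt7 and Krt19 show 7 and 6 H3K4me3 peaks in LLC-R against 3 and 2 in LLC-NR, and Krt18 shows 7 H3K27me3 peaks against 2.

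Marker genes of other cells that a tumor can hold moved beside these values. The median H3K4me3 level was 5.5 peaks in LLC-NR versus 4.0 in LLC-R over 6 leukocyte markers, 5.5 and 4.5 over 6 endothelial markers, and 5.0 and 4.5 over 6 fibroblast markers. Of the simple epithelium markers, Epcam, an epithelial adhesion molecule, held 4 and 6, and Cdh1, the epithelial cadherin, held 6 and 6. Vim, the intermediate filament of mesenchymal cells, held 6 and 5 H3K4me3 peaks and 1 and 5 H3K27me3 peaks. The part of cell composition in the keratin values was not tested.

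Among members with at least 80% unique promoter positions, those with the most H3K4me3 peaks over both lines were Krt80 with 13, Krt32 and Krt8 with 12, and 8 members with 10, of which Krt10 and Krt18 come first by symbol and Krt7 is another. Krt80, a keratin widely expressed in epithelia, held 7 in LLC-NR versus 6 in LLC-R. Krt32, a hair cuticle keratin, held 5 and 7, and Krt10, of the upper epidermis, held 4 and 6. These keratins of skin and hair thus reached the numbers seen at Krt8 and Krt18, with H3K27me3 peaks at the same promoters. H3K27me3 at Krt80 was 5 and 6 peaks, at Krt32 6 and 6, and at Krt10 6 and 6.

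At the other end, with ties taken in the order of the symbols, stood Krt33b, a hair cortex keratin, with 1 H3K4me3 peak in LLC-NR versus 2 in LLC-R. Krt13, of internal stratified epithelia, held 3 and 1. Krt15, of basal cells, and the hair keratins Krt82 and Krt84 each held 1 and 3. The basal pair was low as well, with 4 and 2 peaks at Krt5 and 3 and 4 at Krt14, while Krt1 held 5 and 4. Krt17, induced in injured epidermis, held 4 and 3, the inner root sheath keratins Krt25 and Krt71 held 6 and 4 and 4 and 3, and the hair cortex keratin Krt31 held 4 and 3. H3K27me3 peaks lay at each of these promoters, as at every member, with 5 and 7 peaks at Krt5, 6 and 6 at Krt14, and 5 and 7 at Krt1. No member lacked peaks in all libraries, and the only promoters without an H3K36me3 peak in LLC-NR were Krt20, Krt81, Krtap4-1 and Krtap5-2.

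Gene bodies of the skin and hair keratins and of the keratin-associated proteins held less H3K36me3 per kb than those of other genes in LLC-NR. The members averaged 1.83 peaks per kb in LLC-NR versus 3.29 in LLC-R, against 2.79 and 3.60 over all protein-coding genes. The simple keratins held 2.80 and 3.59, 1.0 and 1.0 times the mean of all genes. The skin and hair keratins held 2.09 and 3.47 (0.75 and 0.96), and the keratin-associated protein genes 1.46 and 3.05 (0.52 and 0.85). At or above the mean of all genes were 15 members (15.5%) in LLC-NR, against 57.5% of all, and 44 (45.4%) in LLC-R, against 71.3%.

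Krt18 held the most of the simple keratins in LLC-NR, with 4.20 peaks per kb there and 3.94 in LLC-R, followed by Krt8 with 3.28 and 4.06. Krt7 held 2.03 and 3.54, and Krt19 1.69 and 2.82. The basal keratin Krt5 held 0.69 and 3.78. The LLC-R library of H3K36me3 had 8747477 peaks and the LLC-NR library 6432422. The low-CpG genes as a whole also came closer to the mean of all genes, from 0.78 of it in LLC-NR to 0.86 in LLC-R, and the olfactory receptor genes from 0.71 to 0.87. The approach of the keratin bodies to the mean was thus seen in other low-level genes, and the part of library size was not tested.

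The genes form 4 clusters in mm9, joined where neighbours lay within 500 kb. The cluster on chromosome 11, chr11:99094075-100131185, holds 27 keratins and 22 keratin-associated protein genes. The cluster on chromosome 15, chr15:101177875-101862457, holds 24 keratins. That on chromosome 16, chr16:88610954-89571428, holds 19 keratin-associated protein genes, and that on chromosome 7, chr7:149360437-149490408, holds 4. Krtap12-1 on chromosome 10 stands alone. The clusters covered 286 tiles of 10 kb of 255407 in the genome, and their G+C content was 44.2%, 48.2%, 38.9% and 46.1%, against 41.8% over all tiles.

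H3K27me3 filled the 2 keratin clusters more densely than the average tile and the chromosome 16 cluster less densely. The chromosome 11 cluster held 36.6 peaks per tile in LLC-NR versus 40.4 in LLC-R, and the chromosome 15 cluster 37.5 and 41.2, where all tiles held 28.3 and 35.6. These are 1.29 (1.25 to 1.33) and 1.13 (1.1 to 1.17) times the mean on chromosome 11, and 1.32 (1.27 to 1.37) and 1.16 (1.12 to 1.2) times on chromosome 15. The chromosome 16 cluster held 20.04 and 32.6, or 0.71 (0.68 to 0.74) and 0.92 (0.88 to 0.95) of the mean. The chromosome 7 cluster held 32.6 and 36.5. Of the 286 tiles 175 (61.2%) reached the mean in LLC-NR, against 53.1% of all tiles, and 217 (75.9%) in LLC-R, against 67.2%. H3K9ac was also above its mean on chromosomes 11 (1.06 and 1.09 times) and 15 (1.13 and 1.16). It was below its mean on chromosomes 16 (0.78 and 0.85) and 7 (0.92 and 0.89). The chromosome 16 cluster lay below the mean of all tiles in all 4 modifications.

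Base composition moved with these levels. Among tiles with at least 80% unique positions and against those of the same G+C content, a reference added after the values were seen, the H3K27me3 ratio was 1.16 and 1.05 on chromosome 11, 1.16 and 1.04 on chromosome 15, 0.75 and 0.92 on chromosome 16, and 1.05 and 0.97 on chromosome 7. The H3K9ac ratio against the same reference was 0.96 and 0.98 on chromosome 11 and 0.97 and 0.99 on chromosome 15. On chromosome 16 it was 0.80 and 0.88, and on chromosome 7 0.86 and 0.84. The surroundings differed between clusters. The 100 kb on each side held 36.1 and 41.6 H3K27me3 peaks per tile on chromosome 11, 30.9 and 40.4 on chromosome 15, 21.9 and 34.5 on chromosome 16, and 36.9 and 40.55 on chromosome 7. The chromosome 15 cluster thus stood above its flanks in LLC-NR, and the clusters on chromosomes 11 and 16 were near theirs. The chromosome 7 cluster lay below its flanks in both lines over all 14 tiles. Its 9 tiles with at least 80% unique positions held 35.6 and 39.4, closer to the flanks, whose tiles all passed that limit. Within the 175 tiles of the 2 keratin clusters, the 5 tiles with fewer than 20 H3K27me3 peaks in LLC-NR all lay among the keratin-associated protein genes of chromosome 11, where 1.98% to 38.0% of positions are unique.

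**Figure D3:**
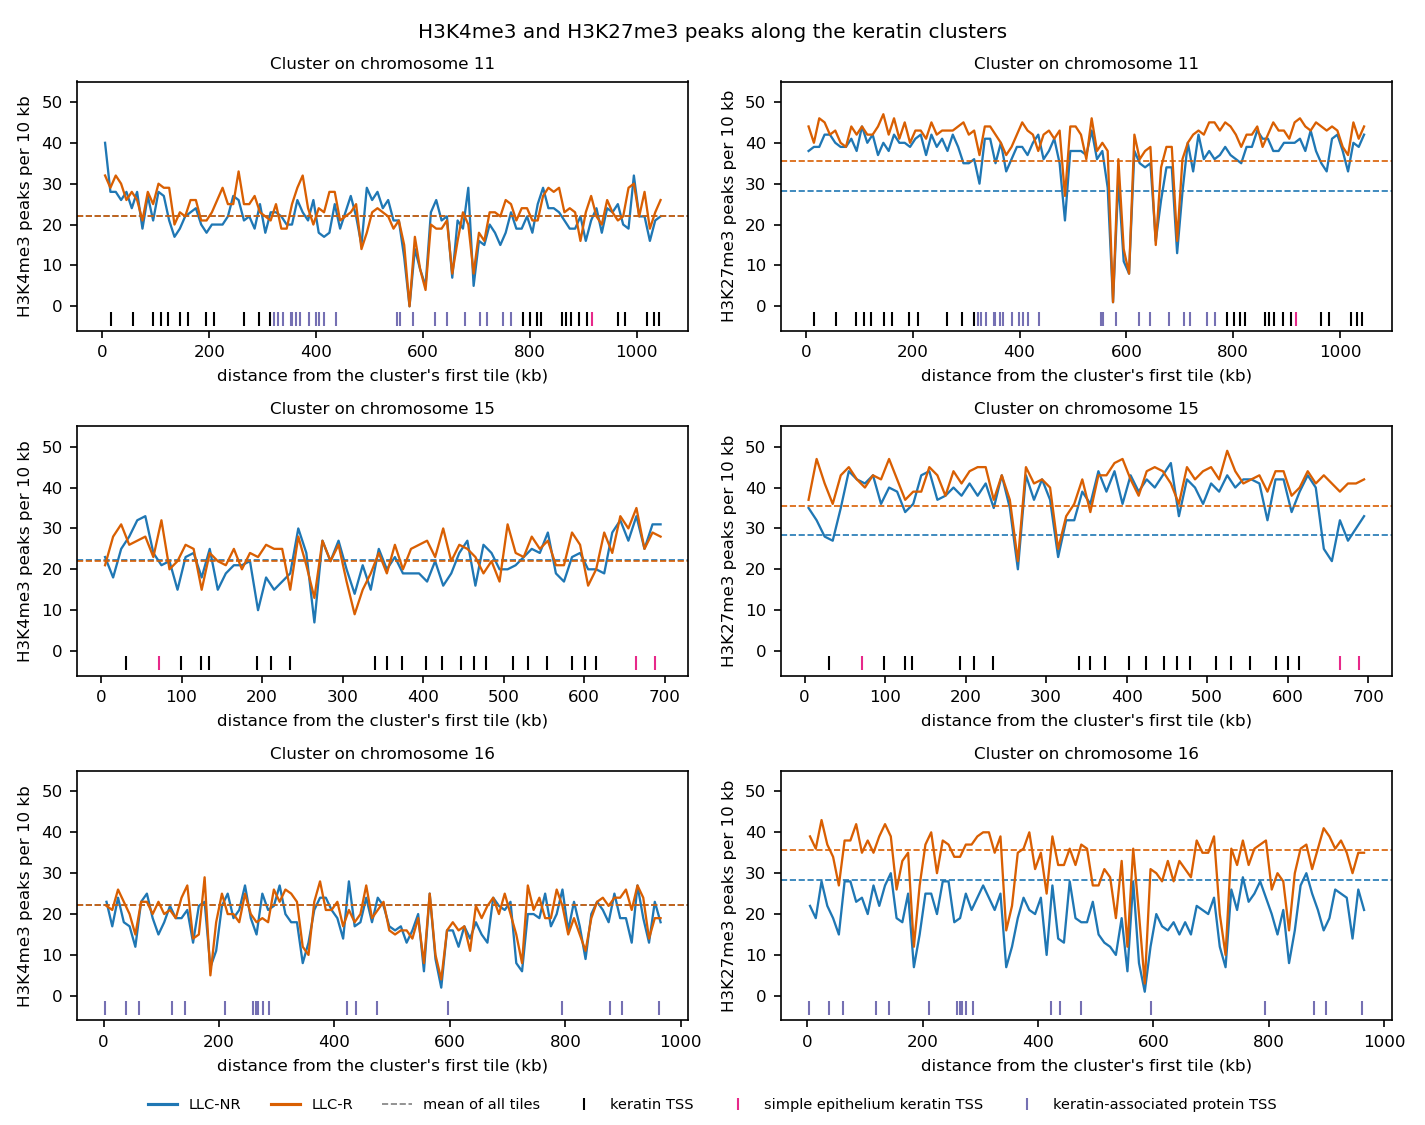
H3K4me3 and H3K27me3 peaks per 10-kb tile (vertical axes) along the clusters on chromosomes 11, 15 and 16, against the distance in kb from the first tile, with LLC-NR in blue, LLC-R in orange, dashed lines for the means of all tiles and ticks for start sites. H3K27me3 runs above the dashed lines on chromosomes 11 and 15 apart from narrow dips, and below them in LLC-NR on chromosome 16, where the cluster mean is 20.04 against 28.3.

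H3K4me3 tiles of the clusters were near or below the genome. Cluster means were 21.3 and 22.9 peaks per tile on chromosome 11, 22.0 and 23.8 on chromosome 15, 18.5 and 19.8 on chromosome 16, and 18.1 and 18.1 on chromosome 7, against 22.2 and 22.1 over all tiles. At or above the mean were 100 of 286 tiles in LLC-NR, against 52.4%, and 141 (49.3%) in LLC-R, against 54%. H3K36me3 was 0.92, 0.90, 0.79 and 0.74 of the mean on chromosomes 11, 15, 16 and 7 in LLC-NR. The same ratios were 1.03, 1.04, 0.95 and 0.88 in LLC-R. Among unique tiles and against those of the same G+C content, the LLC-R ratios on chromosomes 11 and 15 lay below 1, at 0.96 and 0.94 for H3K36me3 and 0.94 and 0.93 for H3K4me3. At or above the H3K36me3 mean were 68 tiles (23.8%) in LLC-NR, against 51.6%, and 167 (58.4%) in LLC-R, against 65.6%.

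Blocks within the clusters, drawn after the values were seen, were compared next. The 5 tiles from Krt8 to Krt18, at the end of the chromosome 15 cluster, held 29.4 H3K4me3 peaks per tile in each line, 1.32 and 1.33 times the mean of all tiles. They held 28.8 H3K27me3 peaks per tile in LLC-NR versus 40.8 in LLC-R. The other blocks of chromosome 15 held 36.3 to 38.8 H3K27me3 peaks per tile in LLC-NR and 40.8 to 42.0 in LLC-R. The Krt8 and Krt18 block was therefore the lowest in H3K27me3 in LLC-NR and level with the others in LLC-R. The flanks of 100 kb on each side of this cluster were similar to that block. They held 28.8 H3K4me3 peaks per tile in LLC-NR versus 30.9 in LLC-R, and 30.9 and 40.4 H3K27me3 peaks. The block from Krt80 to Krt7 held 24.1 and 25.8 H3K4me3 peaks per tile, and the hair keratin block from Krt83 to Krt82 held 18.9 and 22.9. On chromosome 11 the keratin-associated block held 33.1 and 37.0 H3K27me3 peaks per tile, and the keratin blocks 38.8 to 39.6 and 42.4 to 43.0.

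**Figure D4:**
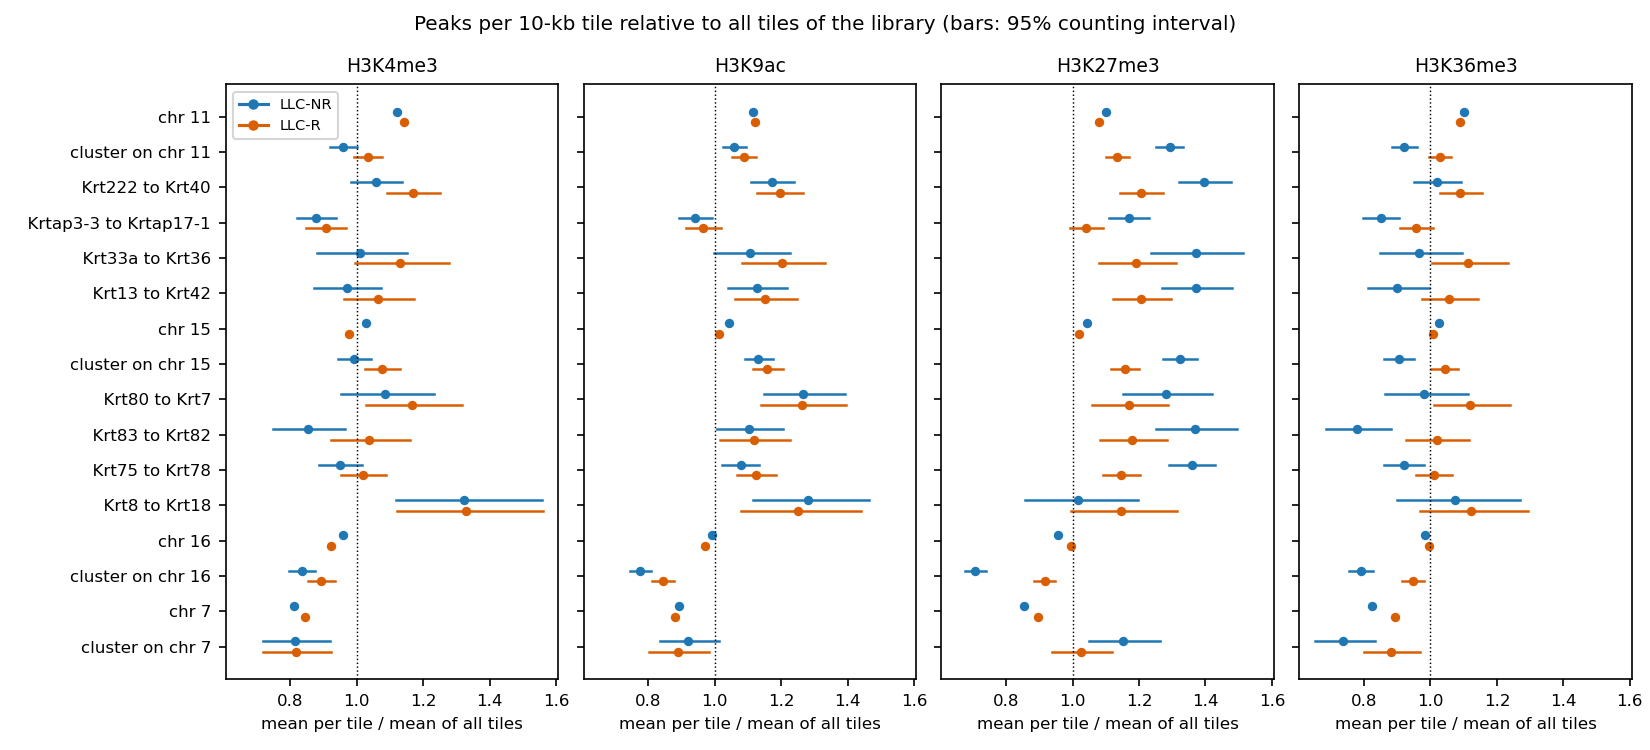
Mean peaks per tile divided by the mean of all tiles of the same library, for whole chromosomes, clusters and blocks of clusters, with points for LLC-NR (blue) and LLC-R (orange) and bars for 95% counting intervals. The Krt8 to Krt18 block has the highest H3K4me3 ratios shown, 1.32 and 1.33, and in LLC-NR the lowest H3K27me3 ratio of the keratin blocks, 1.02. The flanks of the chromosome 15 cluster, not drawn, were similar, at 1.295 and 1.394 for H3K4me3 and 1.089 for H3K27me3 in LLC-NR.

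The comparison of the lines asks which keratin promoters and bodies differ between resistant and sensitive tumors. A gene was called at a 1.5-fold ratio, with 1 library on each side, so member counts are read only against the share of all genes called. On simulated Poisson counts many unchanged promoters passed this rule. Counts of peaks that cannot overlap can vary less than Poisson counts, so the simulated rate need not hold for these data. For H3K4me3, 24 members (24.7%, 16.5 to 34.5) were higher in LLC-R, against 7.29% of all promoters, and 15 (15.5%, 8.92 to 24.2) were lower, against 10.5%. A promoter with few peaks crosses 1.5-fold by a change of 1 or 2 peaks, and the called members moved by 1 to 4. Among promoters of low CpG content, 15 of 54 members (27.8%) were higher, against 14.8% of that class, and 10 (18.5%) were lower, against 16.4%. The median log2 ratio was 0.00 in the members and in all genes. Scaling by uniquely mapped reads in place of peaks put the median of all genes at 0.24 for H3K4me3, 0.54 for H3K9ac, −0.76 for H3K27me3 and −0.77 for H3K36me3. It gave 39 members higher, against 14.7% of all promoters, and 14 lower, against 5.67%, in H3K4me3.

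The members with the largest H3K4me3 ratios came from several groups. Krtap13 and Krtap16-8 had 0 peaks in LLC-NR, and their LLC-R promoters held 4 and 3, at sites of 74.1% and 63.8% unique positions, so no fold is given. Krtap31-1 went from 1 peak to 4, a log2 ratio of 1.60, and the log2 ratio was 1.39 at Krt19 and 1.24 at Krt15, Krt16, Krt82, Krt84 and Krtap2-4, each with 1 peak in LLC-NR and 3 for LLC-R. Krt13, Krt34, Krtap16-7, Krtap5-4 and Krtap6-3 each went from 3 peaks in LLC-NR to 1 in LLC-R, a log2 ratio of −1.23. By group, 2 of the 4 simple keratins were higher and 0 lower, 8 of the 42 skin and hair keratins were higher and 7 lower, and 12 of the 46 keratin-associated genes were higher and 8 lower.

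H3K9ac and H3K27me3 calls were near the background. For H3K9ac 5 members (5.15%) were higher, against 4.1% of all promoters, and 7 (7.22%) were lower, against 6.83%. For H3K27me3 9 members (9.28%) were higher, against 10.7%, and 5 (5.15%) were lower, against 6.72%. These splits followed the scaling, as those of all promoters did. By reads, 51 members were higher (45.5% of all promoters) and 2 lower (1.44%) in H3K9ac, and 4 were higher (2.84%) and 73 lower (64.6%) in H3K27me3. With no scaling, 4 were higher (2.97%) and 12 lower (9.5%) in H3K9ac, and 14 were higher (19.8%) and 0 lower (1.37%) in H3K27me3. Scaled by the windows away from protein-coding start sites, H3K27me3 gave 9 higher (10.7%) and 2 lower (4.85%). The 9 were Krt18 and 8 keratin-associated protein genes, all 8 of them on chromosome 16. Krtap7-1 gained the most peaks of them (from 1 in LLC-NR to 7 in LLC-R), and 0 of the 42 skin and hair keratins were among them.

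For H3K36me3 over gene bodies, 26 members (26.8%) were higher in LLC-R, against 5.87% of all genes, and 2 (2.06%) were lower, against 1.31%. Gene length moved with this count. Among genes of at most 1.5 kb, 19 of 43 members (44.2%) were higher, against 24.6% of such genes, and 2 (4.65%) lower, against 7.86%. Among longer genes 7 of 54 (13.0%) were higher, against 3.2%, and 0 were lower, against 0.368%. The median log2 ratio was 0.34 in the members and −0.07 in all genes. Scaled instead by uniquely mapped reads the medians were −0.34 and −0.77, with 10 members higher, against 2.73% of all genes, and 26 lower, against 69.6%. The sign of the members' median thus turned with the scaling, and it lay above that of all genes under both. The 19 called keratin-associated protein genes and 6 skin and hair keratins made up most of the 26, and 0 of the 4 simple keratins were called.

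Other genes of keratinizing and simple epithelia give the setting. The mean H3K4me3 of all promoters was reached by 63.9% of all protein-coding promoters in LLC-NR versus 58.9% in LLC-R. Of 10 desmosome and hemidesmosome genes 8 reached it in LLC-NR versus 7 in LLC-R, and of 10 regulators of skin and hair keratin genes 7 and 6 did. Of 6 simple epithelium genes outside the keratins 4 and 3 did. With so few genes, these counts were not told apart from the share of all promoters. Of the 13 epidermal differentiation genes 7 and 5 did, and of 7 lung epithelium genes 5 and 4. Of the 12 other intermediate filament genes 7 and 10 reached the mean.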

How the data were processed

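Per the labels and the methods of the study, the authors mapped micrococcal nuclease ChIP-seq reads to mm9 with Bowtie 0.12.7, allowing up to 2 mismatches, kept unique reads and called nucleosome positions per library with GeneTrack; its settings and the read length are not given in the sources used here. The deposited tables hold only start and end positions in base pairs, and each 147-bp interval was used as 1 peak. Peaks were counted by midpoint in promoters, gene bodies and 10-kb tiles of NCBIM37 with GENCODE vM1 with pandas 2.3.3 and NumPy 2.4.6 under Python 3.11.15, and intervals came from SciPy 1.17.1. Ratios between lines were scaled by each library's peaks with a pseudocount of 10% of the mean and called at 1.5-fold. Tested on simulated data, the counting matched direct counts, but the 1.5-fold rule also called many unchanged promoters. The simulated promoter counts were Poisson counts, which can vary more than counts of peaks that cannot overlap. CpG classes used 500-bp intervals. Named by rule were a fixed set of keratins, the 5 members with most and the 5 with fewest H3K4me3 peaks over both lines among unique promoters, up to 5 with the largest H3K4me3 ratio in each direction, and up to 3 genes of each other list. The members, lists and tests were chosen with earlier results of these data known.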

Additional observations from a re-analysis of the deposited data

How the results depend on the processing

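No paired analysis was possible because each line had 1 library for each modification, and for the same reason no replicate could be left out. The 90 recomputed promoter ratios of the keratin groups stayed within the Poisson interval of the reported ratio under the alternatives run. Some of these intervals are wide, so a ratio could cross 1 and still stay within its interval. Counting any base of a peak inside a gene body raised the H3K36me3 ratio of the keratin-associated genes in LLC-NR from 0.52 to 0.66.

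Of 160 recomputed tile ratios 125 stayed within the Poisson interval. With tiles of at least 80% unique positions on both sides, the ratios in LLC-NR and LLC-R became 0.90 and 0.97 for H3K4me3 and 1.21 and 1.07 for H3K27me3 on chromosome 11, and 0.91 and 1.0 and 1.21 and 1.07 on chromosome 15. With the same G+C content as well, they were 0.88 and 0.94 and 1.16 and 1.05 on chromosome 11, 0.88 and 0.93 and 1.16 and 1.04 on chromosome 15, and 0.75 for H3K27me3 in LLC-NR on chromosome 16. The H3K4me3 ratio of the chromosome 11 and 15 clusters in LLC-R thus depended on this choice, and the cause was not tested.

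The counts of called members moved most, and the share of all genes called at the same setting is given after each. Scaled by uniquely mapped reads, 39 members were higher in H3K4me3 (14.7%), 51 higher (45.5%) and 2 lower (1.44%) in H3K9ac, 4 higher (2.84%) and 73 lower (64.6%) in H3K27me3, and 10 higher (2.73%) and 26 lower (69.6%) in H3K36me3. The H3K36me3 log2 ratio of summed peaks then turned to −0.52 in the skin and hair keratins and to −0.17 in the keratin-associated genes. With no scaling, 12 were lower in H3K9ac (9.5%), 14 higher (19.8%) and 0 lower (1.37%) in H3K27me3, and 62 higher in H3K36me3 (19.1%). At a fold of 2, 11 were higher (2.75%) and 9 lower (3.3%) in H3K4me3, 1 higher (0.97%) and 3 lower (1.81%) in H3K9ac, 4 higher (3.86%) and 0 lower (0.72%) in H3K27me3, and 15 higher in H3K36me3 (3.02%). With promoters of 1 kb on each side, 1 was higher (2.98%) and 1 lower (4.12%) in H3K9ac and 2 were lower in H3K27me3 (3.99%). In H3K27me3, 2 were lower with windows away from protein-coding start sites as the scale (4.85%) and 1 with a pseudocount of 1 peak (3.99%). Among unique regions, 3 were lower in H3K9ac (5.58%), 2 in H3K27me3 (6.57%) and 1 in H3K36me3 (0.82%). The files hold no heights, so strong and weak enrichment at a full promoter cannot be told apart.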
